A study of Mus musculus with 2 samples.

Results

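The cells described here are epithelial cells that were taken from mammary tumors and carry transcripts of milk protein genes. Whether they are malignant cells or normal gland cells was not tested. They come from single-cell RNA sequencing of 1 Dll1+ and 1 Dll1- mouse mammary tumor, both untreated controls, from which live cells without the leukocyte protein CD45 were sorted. Dll1 encodes a Notch ligand on the cell surface, and both libraries were made with the 10x v3 chemistry, per the labels' protocols. Each label rests on a single tumor, so tumor, library and Dll1 status cannot be told apart, and no test between tumors is possible. The sources used here do not name the strain, the age, the tumor model or the way a tumor was called Dll1+ or Dll1-.

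The cells were chosen by their own counts of unique molecular identifiers (UMIs, 1 per captured transcript). A barcode needed 1000 UMIs or more over 500 genes or more, and no more than 20% of its UMIs could be mitochondrial. It then had to pass an epithelial gate: at least 1 UMI of Epcam, at least 5 of the simple keratins Krt8 and Krt18 together, fewer than 2 of the basal keratin Krt5, and 0 of the endothelial gene Cdh5 and of the fibroblast gene Pdgfra. Cells of the gate with at least 5 UMIs of Csn2, Wap and Glycam1 together are called member cells, and the rest other gate cells. There were 1467 member cells among 16873 cells of the gate and 26916 deposited barcodes. The Dll1+ library gave 153 member cells and 7588 other gate cells, and the Dll1- library gave 1314 and 7818. High Csn2, Wap and Glycam1 follow from the choice, so their levels are given as a description only.

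In the normal gland, milk protein genes are switched on in alveolar luminal cells during pregnancy and lactation. Prolactin binds its receptor Prlr, the kinase Jak2 phosphorylates Stat5a and Stat5b, and these factors act with Elf5 on casein and whey protein genes. The caseins Csn1s1, Csn2, Csn1s2a, Csn1s2b and Csn3 carry calcium and phosphate in milk. Wap is the whey acidic protein, Lalba (alpha-lactalbumin) turns the Golgi galactosyltransferase B4galt1 into lactose synthase, Glycam1 is a mucin-like secreted protein, and Thrsp is a nuclear protein that promotes fatty acid synthesis.

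The 5 casein genes lie close together on chromosome 5 (mm10, GENCODE M21). Csn1s1 (ENSMUSG00000070702) runs from 87666208 to 87682578 on the plus strand, Csn2 (ENSMUSG00000063157) from 87692624 to 87699630 on the minus strand, and Csn3 (ENSMUSG00000001622) from 87925579 to 87932665 on the plus strand. Wap (ENSMUSG00000000381) lies on chromosome 11 from 6635482 to 6638637, and Lalba (ENSMUSG00000022991) and Glycam1 (ENSMUSG00000022491) on chromosome 15 from 98480400 to 98482721 and from 103562759 to 103565081, all 3 on the minus strand. Thrsp (ENSMUSG00000035686), on chromosome 7 and also minus, spans 97412938 to 97417730. All are annotated as protein coding.

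The promoters of the rule genes and of Csn1s1 are shown because these genes carry the choice of the cells and a difference between the tumors given further on. Each line holds the 250 bases before the RefSeq start site (GRCm38.p6), 5′ to 3′ on the gene's strand. Capitals mark the letters TTCNNNGAA, the motif that STAT factors such as Stat5a are known to bind, which reads the same on both strands. The windows are chr5:87665958-87666207 for Csn1s1, chr5:87699426-87699675 for Csn2, chr15:103565082-103565331 for Glycam1 and chr11:6638650-6638899 for Wap.

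Csn1s1: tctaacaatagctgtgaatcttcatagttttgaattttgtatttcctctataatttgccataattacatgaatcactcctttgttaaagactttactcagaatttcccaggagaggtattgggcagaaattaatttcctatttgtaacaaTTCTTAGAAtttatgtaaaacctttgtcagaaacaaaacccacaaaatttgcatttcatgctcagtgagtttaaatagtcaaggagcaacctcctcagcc
Csn2: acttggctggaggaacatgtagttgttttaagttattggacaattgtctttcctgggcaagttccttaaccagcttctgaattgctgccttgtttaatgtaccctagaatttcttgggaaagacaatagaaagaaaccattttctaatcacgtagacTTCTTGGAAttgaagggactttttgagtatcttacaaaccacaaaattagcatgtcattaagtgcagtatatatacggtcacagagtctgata
Glycam1: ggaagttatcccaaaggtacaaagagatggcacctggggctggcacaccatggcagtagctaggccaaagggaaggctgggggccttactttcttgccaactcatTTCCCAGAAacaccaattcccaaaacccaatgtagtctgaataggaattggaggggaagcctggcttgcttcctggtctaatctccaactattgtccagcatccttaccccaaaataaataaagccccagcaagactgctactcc
Wap: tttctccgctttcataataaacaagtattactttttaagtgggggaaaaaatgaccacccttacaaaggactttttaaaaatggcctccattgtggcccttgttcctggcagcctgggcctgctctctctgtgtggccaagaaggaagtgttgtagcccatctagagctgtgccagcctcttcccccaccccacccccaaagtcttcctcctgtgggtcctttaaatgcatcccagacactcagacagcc

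The motif began 100 bases before the start site in Csn1s1 (TTCTTAGAA), 93 bases before it in Csn2 (TTCTTGGAA) and 145 bases before it in Glycam1 (TTCCCAGAA). In Csn1s2a it lay just after the start site, and these letters were not in the windows of Wap, Lalba and Thrsp. Of the 9 milk genes looked up, 7 had a promoter in the table and 4 held the motif within 300 bases around the start site. Among all 32851 promoters of the table, 8.30% held it. A match is a run of letters, not a measured binding site.

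Member cells made up 1.98% (95% interval 1.68 to 2.31) of the gate in the Dll1+ tumor and 14.4% (13.7 to 15.1) of the gate in the Dll1- tumor. All intervals here cover counting error only, not differences between tumors, and UMIs of 1 cell are not independent. Since the rule asks for a fixed number of UMIs, deep cells met it more easily. Median depth was 17764 UMIs in Dll1+ member cells against 9139 in the other Dll1+ gate cells, and 16169 in Dll1- member cells against 10535.5 in the other Dll1- gate cells. With each cell thinned to 5000 UMIs, which left out 1814 Dll1+ and 941 Dll1- shallower cells, 38 of 5927 Dll1+ cells (0.641%, 0.454 to 0.879) and 592 of 8191 Dll1- cells (7.23%, 6.68 to 7.81) still met the rule. The Dll1- share was the higher at either depth.

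The whole libraries held 117230907 UMIs over 13819 barcodes for the Dll1+ tumor and 135960457 UMIs over 13097 barcodes for the Dll1- tumor. Of these barcodes 10581 and 11121 passed the depth and mitochondrial limits. Cells over 20000 UMIs were 43.1% of Dll1+ member cells against 12.9% of the other Dll1+ gate cells, and 32.7% against 11.7% in the Dll1- library. Among the cells with the highest doublet scores, as many per library as a fixed loading rate sets, were 7.19% of Dll1+ member cells against 8.03% of other Dll1+ gate cells, and 10.7% against 7.98% in the Dll1- library. The libraries shared 109 barcodes, of which 1 was a Dll1+ and 8 were Dll1- member cells. The part of depth and doublets in the results below was not tested beyond the values given.

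**Figure D1:**
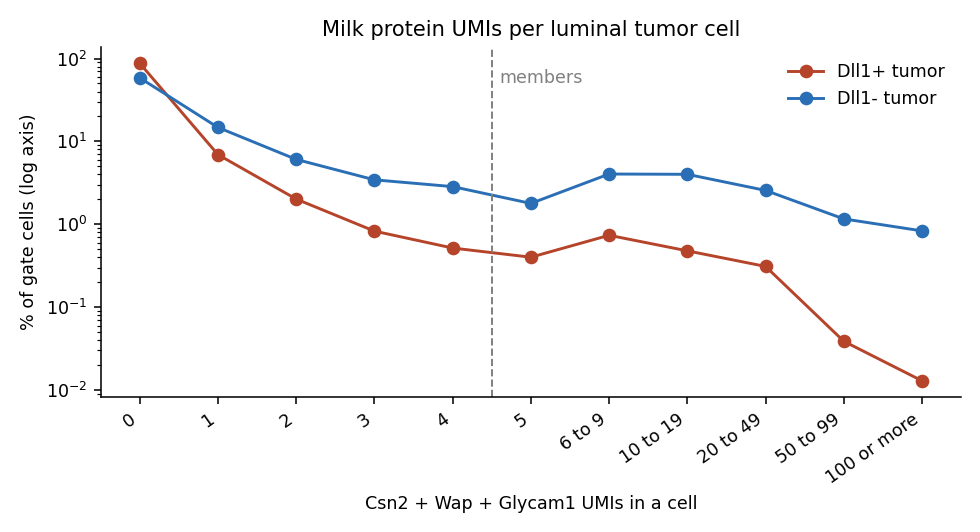
Share of gate cells (y axis, percent, log scale) by the number of Csn2, Wap and Glycam1 UMIs in a cell (x axis) in the Dll1+ tumor (red) and the Dll1- tumor (blue); cells right of the dashed line are member cells. Cells with 0 such UMIs were 87.7% of the Dll1+ and 58.5% of the Dll1- gate, and the Dll1- points lie above the Dll1+ points at every count from 1 upward.

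Counts of the 3 rule genes ran on smoothly across the limit of 5 UMIs. A Dll1+ member cell held a median of 8 rule UMIs (5 to 138) and a Dll1- member cell a median of 12 (5 to 551). Just inside the limit, cells with 5 rule UMIs numbered 31 in the Dll1+ and 163 in the Dll1- library. Just outside it, cells with 4 numbered 40 and 260. Lalba, which the rule did not use, was at 1273 CPM (the UMIs of a gene as a part of all UMIs of the summed cells, on the scale that sequencing studies use) in the Dll1+ cells with 5 and at 1150.0 CPM in those with 4. In the Dll1- library it was at 1762 CPM in the cells with 5 and 1463 CPM in those with 4. So the limit cut a continuous range, and many cells just below it carried milk transcripts too.

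Wap was the leading rule gene in most member cells of both tumors, while the share of Csn2 among the rule UMIs differed. In the Dll1+ tumor Wap gave 77.3% of the rule UMIs and was the leading rule gene in 120 of 153 cells, Glycam1 led in 25 and Csn2 in 5. In the Dll1- tumor Csn2 gave 60.7% of the rule UMIs, while Wap led in 768 of 1314 cells, Csn2 in 396 and Glycam1 in 133. Csn2, beta-casein, held 60 UMIs in 11 of the Dll1+ member cells (18.5 CPM) and 23872 UMIs in 543 of the Dll1- member cells (999 CPM). Wap stood at 518 CPM in Dll1+ and 488 CPM in Dll1- member cells, and Glycam1 at 133 and 159 CPM. A single cell held 31.9% of the Glycam1 UMIs of the Dll1+ member cells. Of the markers that name these cells, Wap, Lalba and Thrsp were found in most member cells of both tumors. Csn2 was found in 7.19% of Dll1+ and 41.3% of Dll1- member cells, and Glycam1 in 24.8% and 25.6%.

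Within a tumor the leading gene went with other differences, given here as values. Dll1- member cells led by Csn2 had 2495 CPM of Csn1s1 and 1147 CPM of Lalba, whereas those led by Wap had 1021 CPM of Csn1s1 and 1997 CPM of Lalba. Dll1- cells led by Glycam1 lay at 1834 and 1847 CPM. In the Dll1+ tumor, the 120 cells led by Wap had 1775 CPM of Lalba and the 25 led by Glycam1 had 266 CPM. The 5 Dll1+ cells led by Csn2 had 2719 CPM of Csn1s1 and 78.3 CPM of Lalba. In both tumors Csn1s1 was thus highest in cells led by its neighbor Csn2.

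The other milk proteins were higher in member cells than in other gate cells of both tumors. The 5 milk protein genes outside the rule each passed 1.5-fold upward in both tumors, with a median log2 ratio of 2.21 in the Dll1+ and 1.19 in the Dll1- tumor. Ratios are log2 of CPM plus 1, member cells over other gate cells of the same library. The background among all measured genes was 6.9% higher and 14% lower in the Dll1+ comparison (773 and 1568 of 11196 genes), with a median of -0.04. In the Dll1- comparison it was 2.1% higher and 4.3% lower (285 and 583 of 13569), with a median of -0.004. A gene counted as measured where the member cells held, or at the level of the other cells would hold, at least 10 UMIs.

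Csn3, kappa-casein, stood at 13205 CPM (13081 to 13331) in Dll1+ member cells against 3611 CPM in the other Dll1+ gate cells, and at 14526 CPM (14478 to 14575) in Dll1- member cells against 8986 CPM in the other Dll1- gate cells. Csn1s1 was at 428 CPM (406 to 451) against 59.9 CPM in the Dll1+ tumor and at 1568 CPM (1552 to 1584) against 482 CPM in the Dll1- tumor. It was found in 34.0% of Dll1+ member cells and 85.2% of Dll1- member cells. Lalba was at 1460.2 CPM (1419 to 1502) against 315 CPM in the Dll1+ tumor and at 1713 CPM (1696 to 1730) against 751 CPM in the Dll1- tumor. Its middle value over single cells was 772 CPM in Dll1+ member cells and 0 in the other Dll1+ gate cells, and 1054 and 96.2 CPM in the Dll1- tumor. Csn1s2a was at 8.31 CPM against 0.624 CPM in the Dll1+ tumor and at 50.8 CPM against 6.87 CPM in the Dll1- tumor. Those Dll1+ member cells held only 27 Csn1s2a UMIs, 51.9% of them in 1 cell. Csn1s2b was low in all groups, with 3.08 against 1.65 CPM in the Dll1+ and 4.23 against 2.29 CPM in the Dll1- tumor. The Dll1+ value rested on 10 UMIs, and its direction turned in thinned cells (log2 ratio -1.47).

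Free RNA in droplets gives a level at which milk transcripts appear in cells that should lack them. It was read from barcodes without Epcam that held Pdgfra or Cdh5, 215 and 211 in the Dll1+ and 361 and 245 in the Dll1- library, with median depths of 9664, 4760, 6897 and 3882 UMIs. Csn3 was at 69.4 and 77.3 CPM in these Dll1+ barcodes and at 176 and 185 CPM in the Dll1- ones. Lalba was at 7.04 and 10.8 CPM, and at 22.0 and 25.6 CPM. Thrsp was at 9.38 and 6.65 CPM in the Dll1+ sets, and Csn1s1 lay between 0 and 22.0 CPM in the 4 sets. Other gate cells lay above these levels for Csn3, Lalba, Thrsp and Csn1s1 in both tumors. For the rule genes the choice held other gate cells to at most 4 UMIs, while the Pdgfra and Cdh5 barcodes had no such limit. The other Dll1- gate cells held 6.31 CPM of Csn2, against 16.2 CPM in Pdgfra barcodes and 6.84 CPM in Cdh5 barcodes. Wap was at 38.0, 1.54 and 1.71 CPM in these Dll1- groups, and Glycam1 at 2.90, 0.771 and 1.71 CPM. Because of the limit, these values cannot place the rule genes of other gate cells against background. Of the 42 Csn2 UMIs of the Pdgfra barcodes 32 sat in 1 barcode, while the Cdh5 barcodes held 8 UMIs, at most 1 each. Of the 4 sets only 1 Dll1+ Cdh5 barcode and 1 Dll1- Pdgfra barcode reached 5 rule UMIs.

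**Figure D2:**
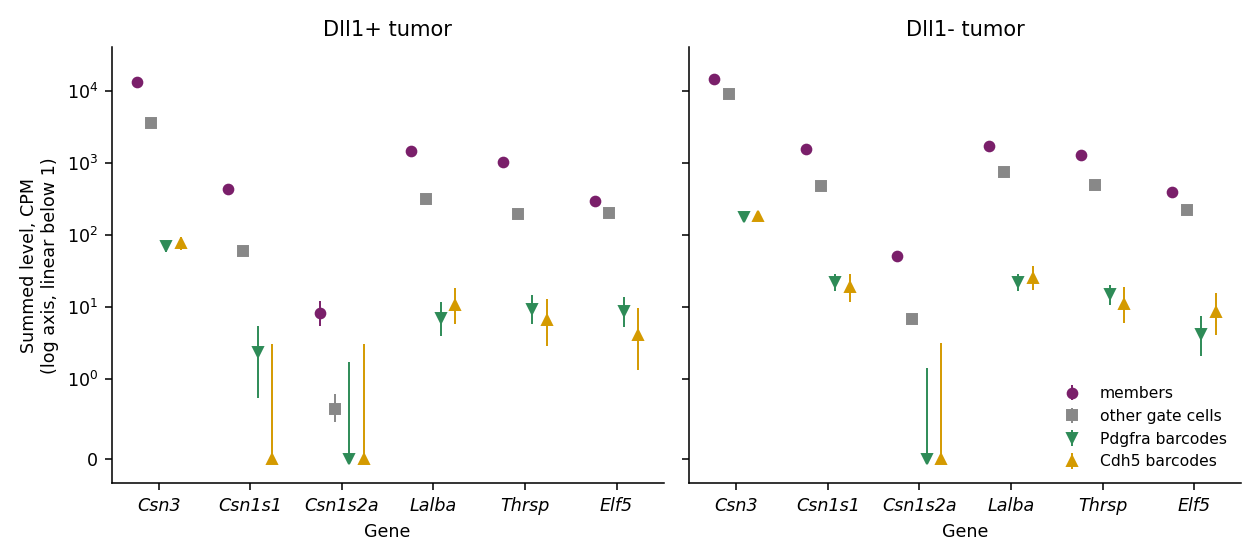
Summed level (y axis, CPM, log scale, linear below 1) of 6 genes that the rule did not use, in member cells (circles), other gate cells (squares) and Pdgfra (down triangles) or Cdh5 barcodes (up triangles) without Epcam, for the Dll1+ (left) and Dll1- tumor (right). Bars are exact 95% Poisson intervals; member cells lie above other gate cells for each gene, for example Lalba with 1460.2 against 315 CPM in the Dll1+ tumor, and Csn1s2a held 0 UMIs in all 4 stromal sets.

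With depth held at 5000 UMIs per cell, Csn3 and Thrsp were higher in every step of rule UMIs up to 5 to 9, in both tumors. Csn3 stood at 3333 CPM in Dll1+ cells with 0 rule UMIs, 8299 with 1, 12328 with 2 to 4, 17969 with 5 to 9 and 18400.0 with 10 or more. In the Dll1- tumor it was at 7917, 11946, 14162, 15319 and 16633 CPM. Lalba did not follow this to the end. It was at 272, 910.2, 1515, 1508 and 1067 CPM in the Dll1+ steps and at 596, 1176, 1726, 1716 and 1735 CPM in the Dll1- steps, level from 2 to 4 rule UMIs onward in the Dll1- tumor. Csn1s1 was at 427, 676, 964, 1673 and 2992 CPM in the Dll1- steps, without such a plateau. The last Dll1+ step held 12 cells and the one before it 26.

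**Figure D3:**
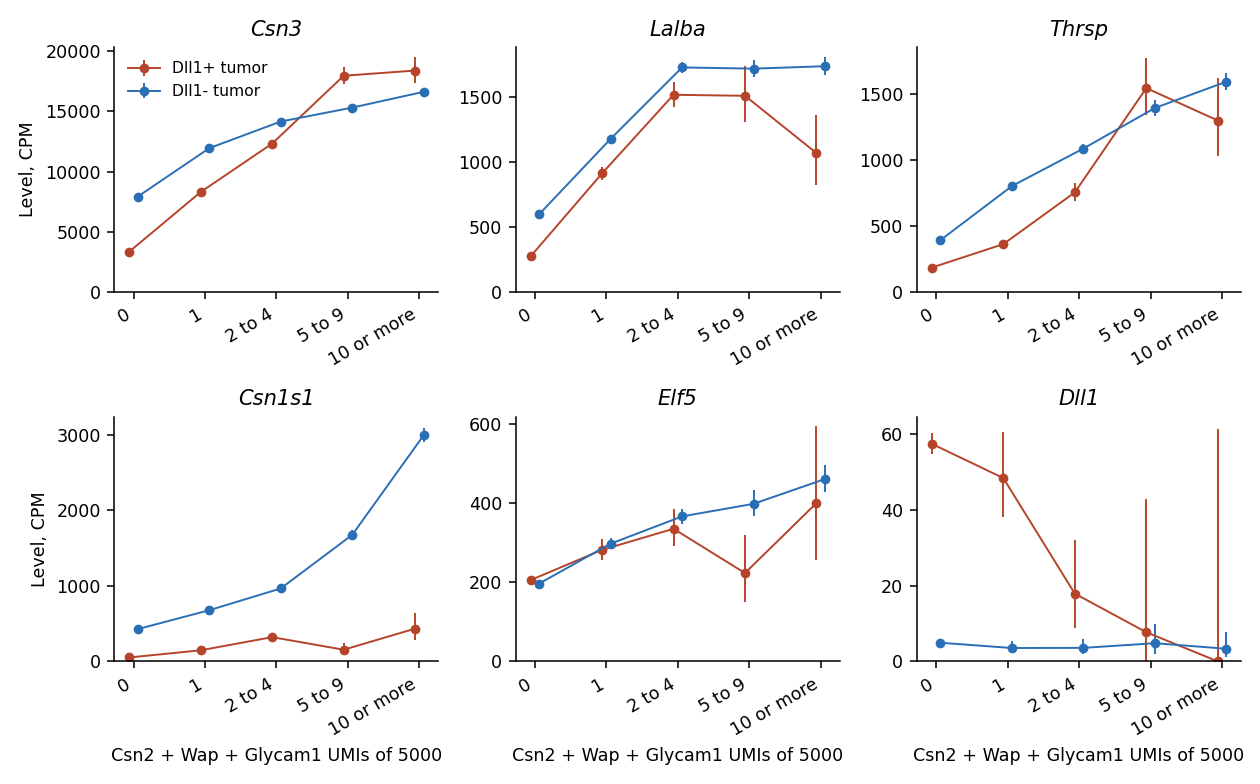
Level (y axes, CPM) of 6 genes outside the rule by the number of rule UMIs in cells thinned to 5000 UMIs (x axes), for the Dll1+ (red) and the Dll1- tumor (blue). Points are sums over the cells of a step and bars exact 95% Poisson intervals; Lalba is level from 2 to 4 UMIs onward in the Dll1- tumor (1726, 1716 and 1735 CPM), while Dll1 in the Dll1+ tumor is lower with more rule UMIs (57.4 CPM at 0 and 17.9 CPM at 2 to 4).

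Upstream of the milk genes, transcripts of the prolactin pathway differed less. Of 18 measured genes 5 were higher and 3 lower in Dll1+ member cells, with a median log2 ratio of 0.12. In the Dll1- tumor 2 of 18 were higher and 0 lower, with a median also at 0.12. The shares over all genes were 6.9% higher and 14% lower in the Dll1+ tumor, and 2.1% and 4.3% in the Dll1- tumor. Stat5a was higher in both, at 32.0 against 10.2 CPM in the Dll1+ and 23.5 against 14.6 CPM in the Dll1- tumor. Stat5b was at 13.9 against 7.46 CPM in the Dll1+ tumor but had a log2 ratio of 0.10 in the Dll1- tumor. Elf5, the alveolar transcription factor, was at 295 against 204 CPM and at 390 against 225 CPM, past 1.5-fold only in the Dll1- tumor. The receptor Prlr (55.4 against 44.9 CPM and 49.1 against 35.4 CPM) and the kinase Jak2 (17.2 against 16.0 CPM and 14.4 against 13.0 CPM) stayed within 1.5-fold in both. Gata3, a luminal transcription factor, was at 102 against 37.8 CPM in the Dll1+ tumor and at 77.3 against 66.7 CPM in the Dll1- tumor. Of the feedback inhibitors of cytokine signaling in the list, Socs1, Socs2 and Cish had negative ratios in both tumors. Only Socs3 was higher, in the Dll1+ tumor alone. Socs1 was at 2.77 against 11.1 CPM (9 UMIs in Dll1+ member cells) and at 7.20 against 9.84 CPM in the Dll1- tumor. Socs3 was at 71.1 against 28.0 CPM in the Dll1+ and at 19.8 against 28.6 CPM in the Dll1- tumor. Socs2 was at 111 against 298 CPM in the Dll1+ and at 14.4 against 17.4 CPM in the Dll1- tumor. Cish was at 15.1 against 23.5 CPM and at 6.95 against 7.22 CPM.

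Genes that make milk fat were partly higher. In Dll1+ member cells 6 of 24 measured genes were higher and 3 lower (median 0.08). In Dll1- member cells 7 of 27 were higher and 1 lower (median 0.37). Among all genes 6.9% were higher and 14% lower in the Dll1+ tumor, and 2.1% and 4.3% in the Dll1- tumor. The same 5 genes passed 1.5-fold upward in both: Thrsp, the fatty acid synthase Fasn, the acetyl-CoA carboxylase Acaca, the ATP citrate lyase Acly and the lipogenic transcription factor Srebf1. Thrsp was at 1039 CPM (1004 to 1075) against 196 CPM in the Dll1+ and at 1268 CPM (1254 to 1283) against 492 CPM in the Dll1- tumor. Acly was at 109 against 47.9 CPM and at 117 against 73.0 CPM, and Fasn at 79.1 against 50.5 CPM and at 104 against 60.8 CPM. Olah, the thioesterase that ends short milk fatty acids, was near the floor, with 0 UMIs in Dll1+ member cells and 0.628 CPM (15 UMIs) in Dll1- member cells against 0.245 CPM in other Dll1- gate cells. Lpin1, a phosphatidate phosphatase of triglyceride synthesis, was at 27.7 against 26.4 CPM in the Dll1+ tumor and had a log2 ratio of 0.70 in the Dll1- tumor. The triglyceride enzyme Dgat2 was at 2.46 against 2.45 CPM and at 1.93 against 2.00 CPM. The desaturase Fads1 and the elongase Elovl5 were lower in Dll1+ member cells, at 26.8 against 61.2 CPM and at 16.9 against 48.3 CPM.

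Coat genes of the milk fat globule did not move together. Xdh, xanthine oxidoreductase, was at 130.3 against 58.0 CPM in the Dll1+ tumor and at 80.1 against 68.5 CPM in the Dll1- tumor. Its partner on the globule, butyrophilin Btn1a1, went opposite ways, at 28.3 against 69.3 CPM (log2 ratio -1.26) in the Dll1+ tumor and at 11.1 against 4.69 CPM (1.09) in the Dll1- tumor. The droplet coat Plin2 was level, at 238 against 243.5 CPM and 700.4 against 709.6 CPM. Cidea, which feeds lipid droplets in secreting cells, was lower in Dll1- member cells at 2.01 against 6.97 CPM.

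Some genes of the secretory machinery were higher in Dll1+ member cells, and few passed 1.5-fold in Dll1- member cells. Of 23 genes of the endoplasmic reticulum and secretion 7 were higher and 0 lower in the Dll1+ tumor (median 0.38), and 1 was higher and 1 lower in the Dll1- tumor (median 0.24). Xbp1, a transcription factor of secretory cells, was higher in both, at 1227 against 332 CPM and at 1002 against 632 CPM. The chaperone Hspa5 was at 668 against 411 CPM in the Dll1+ and 893 against 697 CPM in the Dll1- tumor. Of 12 genes for lactose and sugar supply only Lalba was higher in both tumors. B4galt1, its partner in lactose synthase, was at 53.6 against 35.8 CPM and at 52.4 against 53.7 CPM, and the glucose transporter Slc2a1 was lower in both, at 64.4 against 131 CPM and 74.1 against 143 CPM. Calcium and ion transport genes had medians of 0.03 and 0.08, with 2 of 10 higher and 2 lower in the Dll1+ tumor, and 2 of 10 higher and 1 lower in the Dll1- tumor. Of the whey and secreted defence proteins 5 of 16 were higher and 4 lower in the Dll1+ tumor, and 5 of 17 were higher and 1 lower in the Dll1- tumor. The serum amyloids were among the higher ones, with Saa1 at 679 against 308 CPM and at 1012 against 451 CPM and Saa2 at 537 against 184 CPM and at 873 against 382 CPM. The folate receptor Folr1 was at 247 against 62.3 CPM and at 222 against 121 CPM. Beside the counts of these lists, 6.9% of all genes were higher and 14% lower in the Dll1+ tumor, and 2.1% and 4.3% in the Dll1- tumor.

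Some genes of no milk list stood out as well. Fam20c, the kinase that phosphorylates secreted caseins, had log2 ratios of 2.14 in the Dll1+ and 1.03 in the Dll1- tumor. Derl3, a membrane protein of endoplasmic reticulum protein disposal, was at 23.1 against 7.33 CPM and at 20.9 against 9.91 CPM. Fam228b was at 22.5 against 4.15 CPM and at 41.3 against 15.9 CPM. The largest Dll1+ ratio among the genes named by rule was that of Bpifb5, 74.8 against 8.23 CPM, with 36.6% of the UMIs in 1 cell. The renin gene Ren1 was at 34.3 against 4.74 CPM in the Dll1- tumor but at 27.7 against 33.8 CPM in the Dll1+ tumor, where 1 cell held 61.1% of the member UMIs.

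Of 11094 genes measured in both comparisons, 771 were higher in member cells of the Dll1+ and 247 in those of the Dll1- tumor. Higher in both were 123, 16.0% of the 771 and 49.8% of the 247. Lower in both were 240, 16.2% of 1479 and 56.3% of 426. Over all genes measured in each comparison, 6.9% were higher and 14% lower in the Dll1+ tumor. In the Dll1- tumor the shares were 2.1% and 4.3%. In opposite directions, 10 genes were higher in the Dll1+ and lower in the Dll1- tumor, and 19 the other way round. These comparisons share no cells.

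Several genes were lower in member cells of both tumors. Spp1, osteopontin, was at 144 against 628 CPM in the Dll1+ tumor and at 30.9 against 99.6 CPM in the Dll1- tumor, with 49.2% of the Dll1+ member UMIs in 1 cell. The matricellular gene Ccn2 was at 52.7 against 223 CPM and at 52.3 against 147 CPM. Krt17, a keratin of stressed and basal epithelium, was at 22.5 against 84.2 CPM and at 39.7 against 154 CPM, with 43.8% of the Dll1+ member UMIs in 1 cell. The calcium-binding S100a6 was at 167 against 438 CPM and at 587 against 1740 CPM, and the gap junction gene Gja1 at 37.3 against 88.9 CPM and at 57.9 against 149 CPM. The desmosomal gene Dsp was at 29.9 against 87.0 CPM and at 14.0 against 37.5 CPM.

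Several luminal progenitor genes lay lower too. Of 11 measured, 6 were lower and 1 higher in the Dll1+ tumor (median -0.77), and 4 were lower and 1 higher in the Dll1- tumor (median -0.21). The shares over all genes were 14% lower and 6.9% higher in the Dll1+ tumor, and 4.3% and 2.1% in the Dll1- tumor. The higher gene was Bcl11a in the Dll1+ tumor and Elf5, which is in the prolactin list too, in the Dll1- tumor. The receptor Kit was at 69.6 against 157.5 CPM and at 22.2 against 39.3 CPM. The aldehyde dehydrogenase Aldh1a3 was at 10.2 against 25.9 CPM and at 5.27 against 19.8 CPM, with 60.6% of the Dll1+ member UMIs in 1 cell.

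Notch genes were mostly lower in Dll1+ member cells. Dll1 itself was at 14.8 CPM (10.9 to 19.6) in Dll1+ member cells against 51.5 CPM in the other Dll1+ gate cells. In the Dll1- tumor it was at 3.01 against 4.11 CPM, where Pdgfra barcodes held 0 UMIs and Cdh5 barcodes 24.8 CPM. Of 8 measured Notch genes 6 were lower and 0 higher in the Dll1+ tumor (median -0.87), and 3 of 9 were lower in the Dll1- tumor (median -0.38). Among all genes 14% and 4.3% were lower in these tumors. The Notch target Hes1 was at 77.3 against 170.4 CPM in the Dll1+ and at 46.2 against 60.3 CPM in the Dll1- tumor. The ligand Jag1 was at 0.308 against 3.48 CPM (1 UMI in Dll1+ member cells) and at 4.90 against 14.2 CPM.

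All 12 measured interferon-stimulated genes were lower in Dll1+ member cells (median -1.26), and 1 of 12 was lower in Dll1- member cells (median -0.09). Isg15, a ubiquitin-like protein, was at 662 against 1561 CPM in the Dll1+ and at 1095 against 1174 CPM in the Dll1- tumor. Of 14 chemokine and cytokine genes 9 were lower and 1 higher in the Dll1+ tumor (median -0.73), while 3 of 15 were lower in the Dll1- tumor (median -0.33). The shares of all genes that were lower were 14% in the Dll1+ and 4.3% in the Dll1- tumor. The T cell chemokine Cxcl10 was at 243 against 1065 CPM in the Dll1+ and at 10.1 against 23.2 CPM in the Dll1- tumor. Whether the 2 tumors differ in these contrasts beyond 1 library each was not tested.

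**Figure D4:**
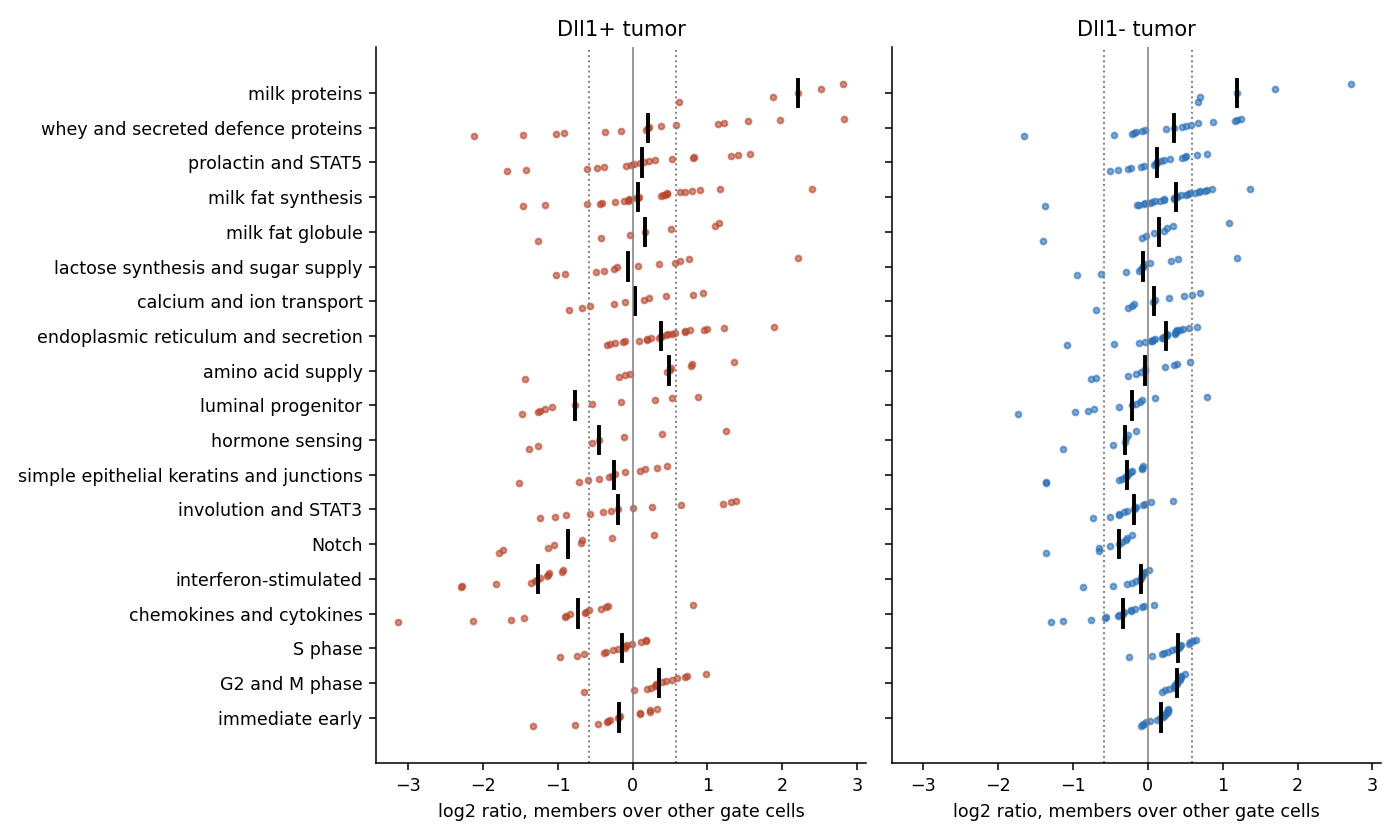
Log2 ratio of member cells over other gate cells (x axes) for each measured gene (dots) of 19 lists (rows), in the Dll1+ tumor (left) and the Dll1- tumor (right); black bars are list medians and dotted lines mark 1.5-fold. Milk proteins have the highest median in both panels (2.21 and 1.19), and interferon-stimulated genes have a median of -1.26 in the left panel and -0.09 in the right one.

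Most cell cycle genes stayed within 1.5-fold, while the median of G2 and M phase genes lay above that of all genes in both tumors. Among 14 genes of G2 and M phase, 4 passed it upward and 1 downward in the Dll1+ tumor, and 0 in either direction in the Dll1- tumor. Of 14 S phase genes 0 were higher and 3 lower in the Dll1+ tumor, and 2 were higher and 0 lower in the Dll1- tumor. Over all measured genes 6.9% were higher and 14% lower in the Dll1+ tumor, and 2.1% and 4.3% in the Dll1- tumor. The median of 14 G2 and M phase genes was 0.35 in the Dll1+ and 0.39 in the Dll1- tumor. That of 14 S phase genes was -0.15 and 0.40, and that of all measured genes -0.04 and -0.004. Top2a was at 85.0 against 71.4 CPM and at 51.5 against 37.6 CPM.

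Markers of other cell types were checked in the member cells. The leukocyte genes Ptprc, Adgre1 and Cd3e and the fat cell genes Adipoq, Lep, Cfd and Cidec held 0 UMIs in member cells of both tumors. Of the 9 leukocyte markers 4 were at 0 in Dll1+ and 3 in Dll1- member cells, with sums of 10.2 against 18.1 CPM and 6.65 against 18.3 CPM. Of the 8 fat cell markers 5 were at 0 in member cells of each tumor, with sums of 5.23 against 6.38 CPM and 4.52 against 2.85 CPM. Of the 7 endothelial markers other than Cdh5, Tek, Emcn and Cldn5 were at 0 in Dll1+ and Cldn5 in Dll1- member cells, with sums of 6.77 against 12.4 CPM and 8.58 against 9.09 CPM. None of the 7 fibroblast markers other than Pdgfra was at 0, and their sums were 85.9 against 193 CPM and 104 against 144 CPM. Pericyte marker sums were 40.6 against 55.4 CPM and 23.1 against 22.6 CPM, and basal ones other than Krt5 195 against 447 CPM and 197 against 318 CPM. Keratinocyte marker sums were 15.1 against 21.1 CPM and 48.8 against 89.3 CPM. Erythroid ones were 1.23 against 0.365 CPM, on 4 UMIs in Dll1+ member cells, and 0.209 against 0.181 CPM. Sums over 1.5-fold higher in member cells were those of erythroid markers in the Dll1+ and of fat cell markers in the Dll1- tumor. The part of these transcripts in the results was not tested.

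Clustering of the gate without the milk protein genes placed most Dll1+ member cells in 1 cluster and spread the Dll1- ones over several. In the Dll1+ tumor 108 of 153 (70.6%) lay in a cluster of 1531 cells led by Saa1, Saa2 and Spp1, where they were 7.05% (5.82 to 8.45) of the cells. A cluster of 124 cells led by Glycam1, Lockd and cell cycle genes held 14 (11.3%, 6.31 to 18.2). In each of the other 6 Dll1+ clusters member cells were at most 1.08% of the cells. In the Dll1- tumor 664 of 1314 (50.5%) lay in a cluster of 2527 cells led by Ren1, Fam228b, Wap and Thrsp, 26.3% (24.6 to 28.0) of it. A cluster of 2238 cells led by Wfdc17 and Ccl20 held 312 of them (13.9% of it, 12.5 to 15.4). They were also 42 of the 168 cells led by Ifit1bl1 and Ifit2 (interval 18.7% to 32.3%) and 20.9% (17.8 to 24.2) of 661 cycling cells. They were 0.723% (0.331 to 1.37) of 1244 cells led by Mmp12 and Krt6a. Of 117 Dll1- cells led by Rgs5, Bgn, Sparc and Col1a2, among them markers of pericytes and fibroblasts, 19 were member cells (16.2%, 10.1 to 24.2). What kind of cell those barcodes hold was not tested.

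**Figure D5:**
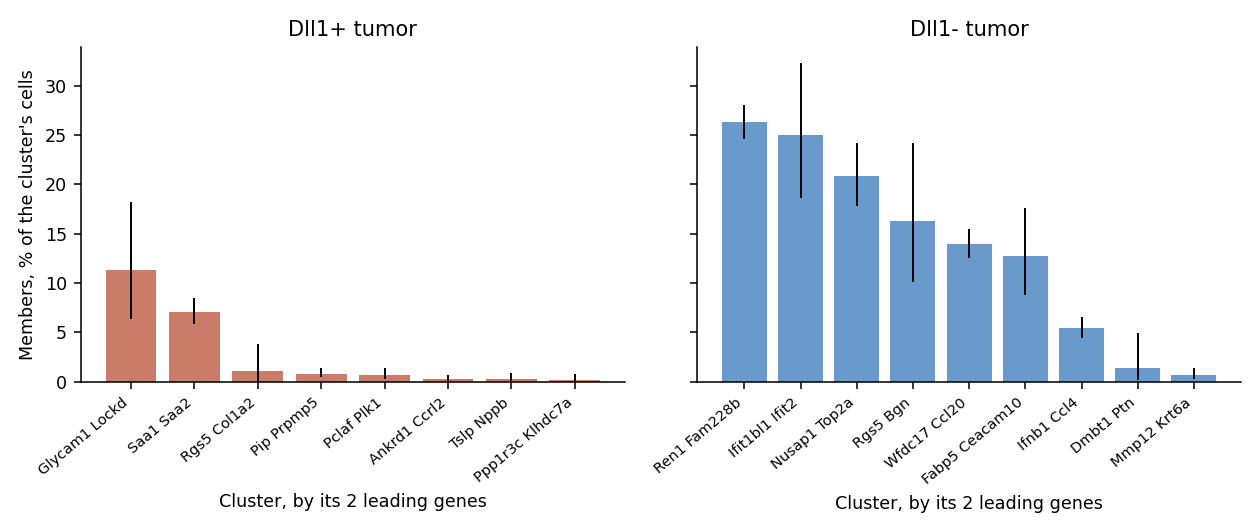
Member cells as a percentage of each cluster's cells (y axis) for clusters of the gate named by their 2 leading genes (x axis), in the Dll1+ (left) and the Dll1- tumor (right); error bars are exact 95% binomial intervals. Member cells are spread over more clusters in the Dll1- tumor, reaching 26.3% in the cluster led by Ren1, and are concentrated in 2 clusters of the Dll1+ tumor (11.3% and 7.05%).

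As a whole the Dll1+ cluster led by Saa1 had 13149 CPM of Csn3, 1199 CPM of Lalba and 21.6 CPM of Dll1, where the largest Dll1+ cluster, led by Ankrd1, had 708 CPM, 45.7 CPM and 60.1 CPM. The cluster led by Glycam1 and Lockd was nearer to it, with 10859 CPM, 826 CPM and 8.75 CPM, and the one led by Tslp had 20.9 CPM of Dll1. Its Csn3 level lay close to the 12901 CPM of the Dll1- cluster with most member cells. Within the Saa1 cluster the 108 member cells still had more Thrsp than the other 1423 cells, 1242 against 366 CPM. Lalba was at 1902 against 1121 CPM and Csn3 at 16742 against 12751 CPM there, with log2 ratios of 0.76 and 0.39. Milk fat genes were higher in 8 of 24 and lower in 1 in that cluster (median 0.37), among them Acly at 129 against 68.4 CPM.

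Other contrasts were smaller, larger or turned within the clusters. Spp1 was at 196 against 2529 CPM (log2 ratio -3.69) and S100a6 at 125 against 988 CPM (-2.98) in the Saa1 cluster, both farther apart than over the whole gate. Inside the Saa1 cluster 5 of 12 interferon-stimulated genes were lower and the median was -0.57, and Dll1 was at 9.66 against 23.0 CPM. Saa1 was at 953 against 1261 CPM there, the reverse of the comparison over the whole gate, Csn1s2b turned too (log2 ratio -0.27), and Xdh was at 163 against 135 CPM. The G2 and M phase genes had a median of -1.57 in this cluster. Within the Dll1- cluster led by Ren1 the 664 member cells had 1906 against 1174 CPM of Thrsp and 2113 against 1336 CPM of Lalba in the other 1863 cells. Milk proteins had a median of 0.66 there, and milk fat genes of 0.07. Over all genes 4.05% were higher and 9.55% lower in the Dll1+ cluster, and 1.09% and 2.88% in the Dll1- cluster.

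Dll1+ member cells were also set against Dll1- member cells, each from 1 library. Of 10885 measured genes 1648 (15.1%) passed 1.5-fold upward and 539 (4.95%) downward, and the median over all genes was 0.17. Scaling by trimmed means (TMM) in place of total UMIs moved the median over all genes to -0.04 and gave 890 higher and 986 lower genes, so 75.4% of the genes apart were higher with total UMIs and 47.4% with TMM. Ratios below are with total UMIs. A gap between the member cells can also be one between the whole libraries, which these ratios do not separate.

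Casein genes differed in unlike degree between the tumors. Csn3 had a log2 ratio of -0.14, Lalba -0.23, Thrsp -0.29, Csn1s1 -1.87 and Csn1s2a -2.47. Csn2, through which the cells were chosen, had -5.68, and Wap 0.09. The ratios of Csn3 and Wap were smaller in size than the shift of -0.23 between the scalings. Those of Lalba, Glycam1 and Thrsp were close to that shift. Other gate cells of the Dll1+ and Dll1- tumor were at 59.9 and 482 CPM of Csn1s1, 0.624 and 6.87 CPM of Csn1s2a, and 3611 and 8986 CPM of Csn3. Csn1s1 and Csn2 are neighbors on chromosome 5, where Csn1s2a and Csn3 lie too. The motif given above was found in Csn1s1, Csn2, Csn1s2a and Glycam1, and the ratio of Glycam1 was -0.25. Whether position or motif has a part in these ratios was not tested. Trf, transferrin, was at 2117 CPM in Dll1+ and 842 CPM in Dll1- member cells. Plin2 was at 238 and 700.4 CPM, and Krt7 at 69.3 and 184 CPM. In other gate cells of the Dll1+ and Dll1- tumor Trf was at 1840 and 714 CPM and Plin2 at 243.5 and 709.6 CPM.

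Of 10 genes chosen from earlier results as far higher in tumor cells of the Dll1+ library, 10 were higher in Dll1+ than in Dll1- member cells (median 3.54), and 10 of 10 were lower in Dll1+ member cells than in other Dll1+ gate cells (median -1.94). The list was chosen on these samples, and other gate cells are most of the Dll1+ gate, so neither direction is independent evidence. Over all measured genes 15.1% were higher in the first comparison and 14% lower in the second. Tlx1, a homeobox gene, was at 17.6 CPM (57 UMIs) in Dll1+ member cells, 60.6 CPM in other Dll1+ gate cells and 0.126 CPM (3 UMIs) in Dll1- member cells. Cdh5 barcodes of the Dll1+ library held 25.8 CPM of Tlx1 and Pdgfra barcodes 4.69 CPM. In the Dll1- library Cdh5 barcodes held 32.5 CPM of Tlx1, and Pdgfra barcodes 37.8 CPM of Pi15, another gene of the list. Prpmp5 was at 22.2, 93.9 and 0 CPM, with 72, 7975 and 0 UMIs, and 43.1% of its Dll1+ member UMIs sat in 1 cell. Kcne3, a potassium channel subunit, was at 51.7, 122 and 0.502 CPM, with 31.0% in 1 cell. Cxcl5, at 65.9, 118 and 0.0419 CPM, had 71.5% of its Dll1+ member UMIs in 1 cell. In the Saa1 cluster, Tlx1 was at 1.45 CPM in member cells and 7.82 CPM in the other cells.

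Luminal progenitor genes were higher in Dll1+ than in Dll1- member cells in 7 of 10 and lower in 0, with a median of 1.06 (0.89 with TMM). Notch genes were higher in 5 of 8 and lower in 1, with a median of 0.76 (0.55 with TMM): Hey1 was at 17.9 and 2.18 CPM, and Hes1 at 77.3 and 46.2 CPM. Interferon-stimulated genes were lower in 7 of 12 and higher in 2, with a median of -0.71 (-0.93 with TMM). Bst2, tetherin, was at 582 and 1628 CPM. The cohesin gene Rec8 was at 1.85 and 46.8 CPM (6 UMIs in Dll1+ member cells), and Cd74, the invariant chain of MHC class II, at 103 and 1.59 CPM. In other gate cells of the Dll1+ and Dll1- tumor Rec8 was at 0.377 and 27.8 CPM and Cd74 at 153 and 3.11 CPM.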

How the data were processed

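The deposited files hold UMI counts per gene and barcode for 1 library from each tumor. Per the file headers the authors made these counts by Cell Ranger (version 4.0.0), on mm10 per the submitters' processing notes, and nothing was normalized before deposit. Cells were selected as the report states, and counts were summed over member cells and over other gate cells of a library and scaled to CPM. Ratios are log2 of CPM plus 1, and 1.5-fold was the limit for calling a gene higher or lower. The 9 genes of the rule and gate were left out of gene counts. With 1 library per tumor there are no replicates, so no p-value was computed. Intervals are exact 95% Poisson or Clopper-Pearson binomial intervals, and ratios have conditional binomial ones. Cells were thinned to 5000 UMIs where depth mattered. Doublets were scored with Scrublet in scanpy 1.11.5. Its automatic limit marked 0 cells in either library, so doublets stayed in, and an alternative removed the highest scores at 0.8% per 1000 cells. Clusters came from the Leiden method on 2000 variable genes without milk protein genes, 30 components, 15 neighbors and resolution 0.6. TMM factors were from edgeR 4.0.16. The script was tested on simulated counts. The genes named were the markers and the lists for milk proteins, prolactin, milk fat synthesis and milk fat globule. Added were the 12 highest and 12 lowest per library with 20 CPM or more and the 8 highest and lowest between tumors. So were the 12 per direction whose smaller change over both libraries was largest. Genes of the other lists were named as examples after their values were seen. Members and lists were chosen with earlier results of these data known.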

Additional observations from a re-analysis of the deposited data

Results flagged for a closer look

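Of the genes named for the comparisons of member cells with other gate cells, 3 went past 1.5-fold in opposite directions in the 2 tumors, and the difference between tumors was not tested. Btn1a1, butyrophilin of the milk fat globule, had a log2 ratio of member cells over other gate cells of -1.26 in the Dll1+ and 1.09 in the Dll1- tumor. The membrane protein gene Tmem37 had -0.67 and 1.49. Oat, ornithine aminotransferase, had -1.63 and 1.23. Glipr1, named for the comparison between tumors, had -0.90 and 0.59. Within the Dll1+ cluster with most member cells, Btn1a1, Tmem37, Oat and Glipr1 had -0.50, -0.20, -0.30 and 0.29, none past 1.5-fold. Within the Dll1- cluster with most member cells they had 0.49, 0.95, 1.13 and 0.59.

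Milk transcripts also appeared outside the epithelial gate. In the Dll1+ library 17 of 2840 cells outside it (0.599%, 0.349 to 0.957) held at least 5 rule UMIs, and in the Dll1- library 57 of 1989 (2.87%, 2.18 to 3.70). Of these, 9 Dll1+ and 17 Dll1- cells held Cdh5, and 2 and 18 held Pdgfra. Only 1 and 7 lacked Epcam, so most held this epithelial gene. Too few Krt8 and Krt18 UMIs were found in 4 and 5, and 2 or more Krt5 UMIs in 3 and 14. What kind of cell these barcodes hold was not tested.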

How the results depend on the processing

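No list median past 1.5-fold turned round among 645 recomputed values, of which 131 moved. Smaller medians were not counted as turned, and some changed sign within the cluster with most member cells. Among them, in the Dll1+ tumor, G2 and M phase went from 0.35 to -1.57 (9 genes measured there). Whey and secreted defence proteins went from 0.21 to -0.32 in that tumor, and the prolactin list from 0.12 to -0.11 in the Dll1- tumor. Of 2886 values for named genes, 862 moved and 10 turned round. Alternatives within 1 cluster or without 5 cells were chosen after seeing the data. The causes of the moves were not tested.

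With 10 or more rule UMIs, member cells were 0.840% of the Dll1+ and 8.56% of the Dll1- gate. Thinned cells gave 0.641% and 7.23%, and cells of 5000 to 20000 UMIs gave 12.6% in the Dll1- gate. At a Leiden resolution of 1.2 the highest share in a Dll1- cluster was 36.2%.

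In the Dll1+ tumor, higher genes numbered 283 with a pseudocount of 10 CPM and 404 within the cluster with most member cells. Lower genes numbered 623 in thinned cells, 682 with that pseudocount and 953 within the cluster. Of the genes apart, 48.3% were higher in thinned cells against 33.0% over the whole cells. The milk protein median was 2.52 with 10 or more rule UMIs, 2.04 thinned, 2.47 without the highest doublet scores, 2.38 at 5000 to 20000 UMIs, 2.49 with each cell weighted alike, 1.87 with the pseudocount, 0.89 within the cluster and 2.30 without the 5 member cells with most rule UMIs. The milk fat synthesis median was 0.87 thinned. Csn1s2b turned to -1.47 thinned and -0.27 within the cluster, and within it Muc15 turned to -0.27, Prh1 to 0.24, Saa2 to -0.012 and Saa1 to -0.40.

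In the Dll1- tumor, higher genes numbered 616 thinned, 463 at 5000 to 20000 UMIs, 482 with cells weighted alike, 69 with the pseudocount and 131 within the cluster. Lower genes numbered 983, 981, 147 and 345 under the last 4 of these. The milk protein median was 1.03 with 10 or more rule UMIs, 1.12 thinned, 1.27 without the highest doublet scores, 1.31 at 5000 to 20000 UMIs, 1.38 weighted alike and 0.66 within the cluster. The prolactin median was -0.11 within the cluster. The milk fat synthesis median was 0.55 thinned, 0.50 at 5000 to 20000 UMIs, 0.27 with the pseudocount and 0.065 within the cluster. Timp3 turned to 0.36 and Ly6d to 1.05 within it.

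Between Dll1+ and Dll1- member cells, higher genes numbered 649 thinned, 890 with TMM and 407 with the pseudocount. Lower genes numbered 342, 986 and 211 under these, and 855 with no minimum on UMIs. Cish turned to -0.54 thinned and Pip to -0.23 at 5000 to 20000 UMIs.

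No paired analysis was possible because each tumor gave 1 library. Depth limits low genes most: the Dll1+ member cells held 3247515 UMIs in all, and 3 UMIs, the limit that a count of 0 allows, equal 0.924 CPM there.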
